A study of Mus musculus with 2 samples.

Results

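To describe the chromatin around retinal ganglion cell (RGC) genes in late retinal progenitor cells (RPCs), ATAC-seq peaks were collected at 10 loci: Atoh7, Pou4f1, Pou4f2, Pou4f3, Isl1, Isl2, Rbpms, Sncg, Nefl and Eomes. A peak belonged to a locus when its summit lay in the gene body or within 50 kb on either side, on mm10. By this rule the loci held 92 of the 117165 control peaks and 100 of the 124935 Ngn3-OE peaks. ATAC-seq uses the Tn5 transposase to cut DNA that is free of nucleosomes, so open sites collect sequenced tags.

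The cells were late RPCs of mouse retinas that received a control or an Ngn3 overexpression (Ngn3-OE) plasmid by in vivo electroporation at postnatal day 1. GFP marked the cells that took up the plasmid in both groups, and GFP-positive cells were sorted at day 2 after electroporation (DAE 2), 50000 per library. Each group had 1 library, the control labelled Ctrl and the other Ngn3OE, so no test of the condition was possible. Intervals below cover counting error, or for medians the spread between peaks, and variation between animals or preparations was not measured. No strain or sex was given in the sources used here.

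RGCs are the projection neurons of the retina and carry its output along the optic nerve. They are born early, from embryonic progenitors, and late RPCs normally form rods and the other late-born cell types instead. The proneural factor Atoh7 makes progenitors competent for the RGC fate, and the POU-homeodomain factors Pou4f1, Pou4f2 and Pou4f3 act with the LIM-homeodomain factor Isl1 in RGC differentiation and survival. Neurog3 (Ngn3) is a basic helix-loop-helix factor like Atoh7, and such factors bind E-boxes.

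The sequences of 7 open sites are given to show the DNA behind sites described below, picked by several criteria, and larger differences than some of these were seen at sites not shown. Each runs for 100 bp on both sides of a summit on GRCm38 (mm10), read from RefSeq. Capitals mark CATCTG, its reverse complement CAGATG, or the palindromic E-box CAGCTG. The Pou4f2 and Sncg sites were the shared peaks with a tag ratio interval above 0, which was the case at 2 of 71 shared peaks of the loci (2.82%) and at 3.70% of all shared peaks. The interval lay below 0 at 0 of the 71, against 2.27% of all shared peaks. The Isl1, Rbpms and downstream Isl2 sites had the largest gain in rank at their loci, and the other Isl2 site had the most tags among the peaks of the RGC loci that were seen in 1 library. The Atoh7 site was the one with the largest tag ratio there. The Atoh7 site, the Isl2 site nearest the start and the Sncg site were chosen after their values were seen. The criteria that picked the other sites also rest on values of these same data.
Pou4f2 upstream of the start site (chr8:78437133-78437333, plus strand): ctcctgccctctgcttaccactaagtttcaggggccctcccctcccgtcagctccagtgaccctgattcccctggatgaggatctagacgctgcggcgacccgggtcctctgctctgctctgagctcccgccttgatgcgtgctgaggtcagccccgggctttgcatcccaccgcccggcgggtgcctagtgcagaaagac
Atoh7 upstream (chr10:63090159-63090359, plus strand): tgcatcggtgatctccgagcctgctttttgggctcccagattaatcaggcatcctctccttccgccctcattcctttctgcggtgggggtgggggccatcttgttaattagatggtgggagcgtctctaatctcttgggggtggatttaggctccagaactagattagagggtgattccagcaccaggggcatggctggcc
Isl1 downstream (chr13:116293983-116294183, plus strand): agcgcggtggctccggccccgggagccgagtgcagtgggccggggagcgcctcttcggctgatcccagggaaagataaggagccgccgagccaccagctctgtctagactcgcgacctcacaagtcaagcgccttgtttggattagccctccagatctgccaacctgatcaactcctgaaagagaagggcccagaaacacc
Isl2 coding exon and intron (chr9:55542555-55542755, plus strand): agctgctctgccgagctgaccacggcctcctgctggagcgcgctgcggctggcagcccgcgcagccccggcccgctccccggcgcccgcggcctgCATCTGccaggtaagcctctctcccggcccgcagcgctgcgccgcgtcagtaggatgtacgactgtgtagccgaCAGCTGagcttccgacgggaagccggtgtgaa
Isl2 downstream, intron of Scaper (chr9:55575974-55576174, plus strand): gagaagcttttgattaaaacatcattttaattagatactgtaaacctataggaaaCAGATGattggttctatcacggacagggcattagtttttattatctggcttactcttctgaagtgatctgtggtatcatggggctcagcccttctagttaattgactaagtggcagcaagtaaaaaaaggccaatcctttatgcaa
Rbpms intron (chr8:33787169-33787369, plus strand): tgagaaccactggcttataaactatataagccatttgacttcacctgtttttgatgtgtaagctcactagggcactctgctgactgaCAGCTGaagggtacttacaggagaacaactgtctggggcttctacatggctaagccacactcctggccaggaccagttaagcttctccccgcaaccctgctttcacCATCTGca
Sncg upstream, intron of Bmpr1a (chr14:34417570-34417770, plus strand): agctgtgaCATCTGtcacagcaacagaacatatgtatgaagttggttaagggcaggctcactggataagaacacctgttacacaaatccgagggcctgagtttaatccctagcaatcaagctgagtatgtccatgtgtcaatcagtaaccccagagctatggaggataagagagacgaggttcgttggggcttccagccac

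The Pou4f2, Atoh7 and Isl1 windows held none of these E-boxes, whereas the Rbpms window and the Isl2 site nearest the start each held CATCTG and CAGCTG. The Isl2 site nearest the start crosses the end of a coding exon. The Sncg and Rbpms sites carried their CATCTG close to the edge of the window.

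The number of tags at a summit was recovered from the deposited values and is given for each site. Peaks of each library were also ordered by −log10 q and placed on a scale of rank percentiles, on which 0 is the weakest peak and 100 the strongest. Below, the strongest peak of a set is the one with the highest −log10 q, which need not have the most tags. The median was 9 tags at the summit in both libraries, over all peaks and over the peaks of the RGC loci alike. Total read numbers were not used here. The peaks of the 10 loci were therefore neither strong nor weak as a group: their median rank percentile was 46.5 (95% interval, 35.1 to 57.0) in control and 44.6 (34.6 to 60.2) in Ngn3-OE. Every locus was already marked by open sites in control, from 3 peaks at Isl1 to 18 at Rbpms, whose gene body is by far the longest. Per 100 kb of window, the median was 8.0 control peaks (5.64 to 9.84) at the RGC loci and 6.83 over 21938 protein-coding genes. In Ngn3-OE the RGC median was 9.74 (6.07 to 10.7), against 7.46 over all genes. Both intervals hold the median over all genes.

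Most open sites of the RGC loci were present in both libraries. Shared peaks are those with an overlap of 1 bp or more with the other list. Of the 92 control peaks, 71 were shared and 21 were control-only, a share of 22.8% (95% Wilson interval, 15.4 to 32.4), near the background of 21.7% over all control peaks. Of the 100 Ngn3-OE peaks, 73 were shared and 27 were Ngn3-OE-only, or 27.0% (19.3 to 36.4), near the background of 26.6%. The log2 ratio of Ngn3-OE-only to control-only peaks was 0.36 (−0.46 to 1.19), against 0.39 over all peaks. For the loci as a whole, these values lay within counting error of those for all peaks. The one-library peaks were also weak, with medians of 5 tags for control-only and 6 for Ngn3-OE-only peaks, against 5 and 5 over all one-library peaks.

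The balance varied from gene to gene. Ngn3-OE-only peaks outnumbered control-only peaks at 5 loci, were fewer at 2 and equal at 3. Over all protein-coding genes the first pattern was seen at 47.8% and the second at 23.2%. Eomes had 5 Ngn3-OE-only against 2 control-only peaks, and Pou4f2 had 4 against 1. Pou4f1 and Isl2 each had 2 Ngn3-OE-only peaks and no control-only peak, and Pou4f3 had 4 against 3. In the opposite direction, Rbpms had 4 against 7 and Nefl had 3 against 5. Atoh7, Isl1 and Sncg had 1 of each. With so few peaks per gene, none of these pairs of counts was tested.

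**Figure D1:**
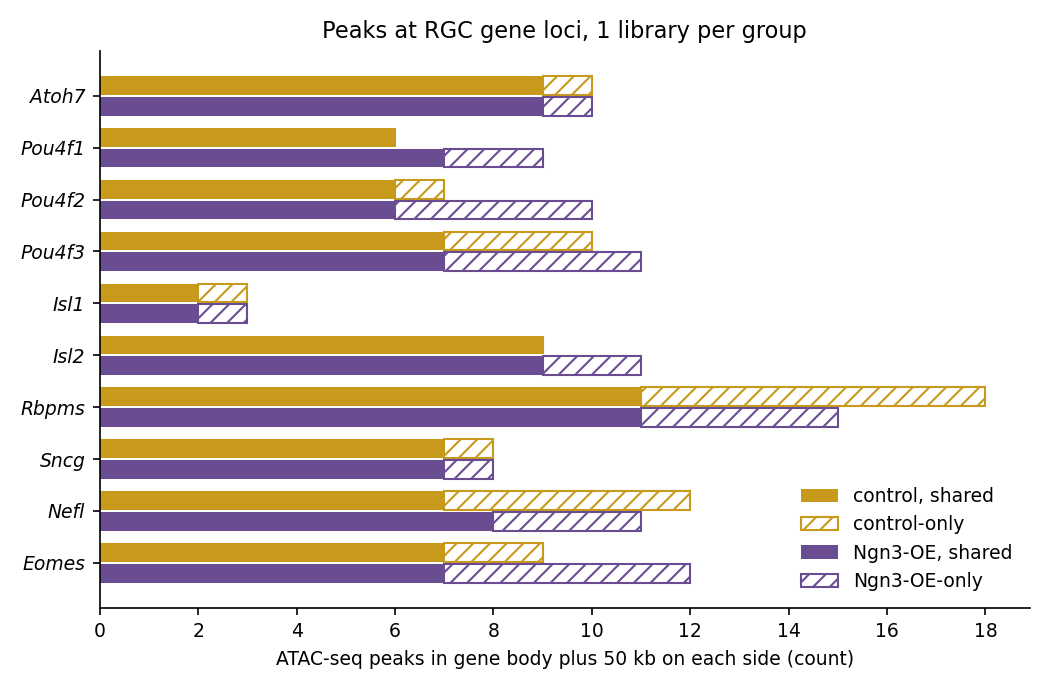
Number of ATAC-seq peaks at each of the 10 RGC loci (gene body plus 50 kb on each side) in the control library (yellow) and the Ngn3-OE library (purple). Filled bars are shared peaks and hatched bars are peaks of 1 library; Pou4f1 and Isl2 have no control-only peak.

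At the Pou4f2 locus, the gene of the POU-homeodomain factor BRN3B that is needed for RGC differentiation and survival, the start site showed the clearest difference of any member. Pou4f2 lies on chromosome 8 from 78433010 to 78436645 on the minus strand. The peak at −588 bp from its start site (negative distances lie upstream) had 9 tags in control and 21 in Ngn3-OE. It stood at a rank percentile of 30.5 in the control list and 73.1 in the Ngn3-OE list. The log2 ratio of the tags, scaled by the background of each library, was 1.25 (95% interval, 0.06 to 2.56), so the lower bound lay just above 0.

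Around this peak the Pou4f2 promoter was covered by 4 peaks within 1 kb of the start site in Ngn3-OE and by 2 in control. The additional sites lay at −177 bp, with 8 tags, and at 157 bp, with 7 tags, and both were Ngn3-OE-only. Both were weak calls that ranked low in the Ngn3-OE list, at percentiles of 11.2 and 7.6. The remaining shared site at 414 bp had 9 tags in control and 8 in Ngn3-OE. The strongest Ngn3-OE-only peak of the locus lay downstream at 24470 bp and had 9 tags, and the strongest peak of the locus by −log10 q, at 16315 bp, had 14 tags in control and 16 in Ngn3-OE. The only control-only peak, at 9495 bp, had 3 tags. Of the 6 shared Pou4f2 peaks, 4 gained 20 or more rank percentile points, and the median shift was 20.8 points. Other than at −588 bp, these gains rested on 10 tags or fewer in each library, and each tag ratio interval included 0. No peak of the locus, in either library, held CATCTG within 100 bp of its summit.

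At Pou4f1 (chromosome 14, 104461676 to 104467999, minus strand), which encodes BRN3A, the start-site peak at −84 bp was strong in both libraries, with 41 tags in control and 48 in Ngn3-OE. Its log2 tag ratio was 0.25 (−0.38 to 0.89). The largest gain in rank among the 6 shared Pou4f1 peaks, at −6124 bp, was 13.4 percentile points, from 6 to 8 tags. The largest loss, at 1817 bp, was from 11 to 10 tags, and the Ngn3-OE-only peaks, at −5892 bp and 1340 bp, had 7 tags each. No Pou4f1 peak moved by 20 points.

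Pou4f3 (chromosome 18, 42394539 to 42397249, plus strand), which encodes BRN3C and is also known from hair cells of the inner ear, had the fewest start-site tags of the open members. The shared peak at −58 bp had 6 tags in both libraries, and an Ngn3-OE-only peak at 287 bp had 7 tags. Upstream, the site at −19348 bp had 7 tags in control and 13 in Ngn3-OE, a gain of 25 rank points, and the site at −19632 bp had 7 and 5 tags, a shift of −22.7 points. The intervals of their log2 ratios (−0.51 to 2.48 and −2.46 to 1.41) both included 0. The strongest Pou4f3 peak, at 34246 bp, had 21 tags in control and 20 in Ngn3-OE.

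Atoh7 (chromosome 10, 63099651 to 63101279, plus strand) was open at its start site in both libraries. The peak at 676 bp had 23 tags in control and 21 in Ngn3-OE, and the peak at 54 bp had 13 and 11 tags. The difference at 676 bp was within counting error (log2 ratio −0.11, −1.03 to 0.81), and this peak held CATCTG. Upstream, the site at −9392 bp had 12 tags in control and 21 in Ngn3-OE, and its rank percentile was 56.0 and 78.1. Its log2 ratio of 0.83 had an interval from −0.26 to 1.99, which includes 0. The largest gain in rank, 24.6 points at 13758 bp, rested on 4 and 6 tags, and this site lies nearer to the start of Mypn than to that of Atoh7. The strongest peak of the window, at −33476 bp with 29 and 38 tags, lies in an intron of Pbld1.

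Isl1 (chromosome 13, 116298281 to 116309689, minus strand) encodes a LIM-homeodomain factor that acts with POU4F2 in RGCs and is also used by bipolar and starburst amacrine cells. Its window was the emptiest of the 10, with 3 peaks in each library. The start-site peak at −106 bp had 36 tags in control and 38 in Ngn3-OE. The other shared peak, at 15339 bp, had 4 tags in control and 9 in Ngn3-OE, and its rank percentile was 10.8 and 58.8. Its log2 ratio was 1.19 with an interval from −0.65 to 3.35, so at this depth the difference could not be told from counting error. A control-only peak at 11899 bp had 6 tags and an Ngn3-OE-only peak at 14540 bp had 5.

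Isl2 (chromosome 9, 55538672 to 55546180, plus strand), a LIM-homeodomain factor of RGCs that project across the midline, had the start site with most tags in Ngn3-OE. The peak at −17 bp had 41 tags in control and 58 in Ngn3-OE, with a log2 ratio of 0.52 (−0.08 to 1.14). Inside the gene, a peak at 1507 bp was called in Ngn3-OE alone with 14 tags, the most of any one-library peak at the RGC loci, and it held CATCTG. Its rank percentile in Ngn3-OE was 34.6, below the middle of the list. The Ngn3-OE-only peak with the highest −log10 q at this locus lay at −6400 bp with 7 tags. The largest gain in rank was 36.1 points at 34926 bp, from 5 to 10 tags, in an intron of the neighbouring gene Scaper. The strongest peak of the window lay near the start of Etfa and had 81 tags in each library.

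Eomes (chromosome 9, 118478212 to 118486132, plus strand), the T-box factor TBR2 that is needed by intrinsically photosensitive RGCs, had 9 control and 12 Ngn3-OE peaks. Within 1 kb of its start site the peaks were weak in both libraries, and a stronger shared peak at −1928 bp, named after its values were seen, had 24 tags in control and 18 in Ngn3-OE. The peak at −881 bp had 7 tags in control and 9 in Ngn3-OE, the peak at 859 bp had 8 in each, and the peak at −58 bp was control-only with 8 tags. Downstream, the peak at 8710 bp gained 23.7 rank points, from 8 to 11 tags (log2 ratio 0.48, −0.96 to 2.0), and the peak at 10103 bp shifted by −23.4 points, from 18 to 10 tags. The log2 ratio of the latter was −0.82 (−2.10 to 0.37), so neither differed beyond counting error. The strongest Eomes-window peak, at 27846 bp, had 25 tags in control and 24 in Ngn3-OE and lay near the start of Golga4.

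Among the genes that mark mature RGCs, Rbpms (chromosome 8, 33782643 to 33929863, minus strand) encodes an RNA-binding protein found in nearly all RGCs. Its start-site peak at 13 bp had 12 tags in control and 21 in Ngn3-OE, and its rank percentile was 58.3 and 78.7. The interval of its log2 ratio, 0.83 (−0.26 to 1.99), included 0. The largest gain in rank of any shared peak at the 10 loci, 51.1 points at 142536 bp in an Rbpms intron, rested on 3 tags in control and 8 in Ngn3-OE. The strongest Rbpms peak was intronic, at 96456 bp, with 47 tags in control and 54 in Ngn3-OE. Rbpms also had the most control-only peaks, and the strongest of these 7, at 76135 bp, had 7 tags.

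Sncg (chromosome 14, 34370274 to 34374789, minus strand), which encodes the RGC-enriched gamma-synuclein, was the only member with no peak within 1 kb of its start site in either library. Its nearest peak lay at 1947 bp, with 16 tags in control and 15 in Ngn3-OE. The peak at −42881 bp had 10 tags in control and 25 in Ngn3-OE, with a log2 ratio of 1.35 (0.24 to 2.57). This peak lies in an intron of Bmpr1a, and only 1 of the 8 control peaks of the window had the Sncg start as its nearest protein-coding start. The largest gain in rank, 30.8 points at 29323 bp, was from 6 to 12 tags. That summit lies in Gm3219, a processed pseudogene, so reads there may be shared with another copy.

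Nefl (chromosome 14, 68083863 to 68089095, plus strand) encodes the light neurofilament subunit of large axons. Its start-site peaks were weak in both libraries. The peak at −68 bp had 10 tags in control and 9 in Ngn3-OE, and the peak at 502 bp had 8 and 7. A control-only peak at 203 bp had 8 tags. The shared peak at 1293 bp shifted by −20.8 rank points, from 11 to 8 tags. Of the 7 shared control peaks at Nefl, 5 ranked lower in Ngn3-OE and none gained 20 points. The strongest peak, at −42991 bp, had 44 tags in control and 34 in Ngn3-OE, and the control-only peak with the highest −log10 q, at −15869 bp, had 8 tags. The same window holds the start of Nefm, the medium neurofilament gene.

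**Figure D2:**
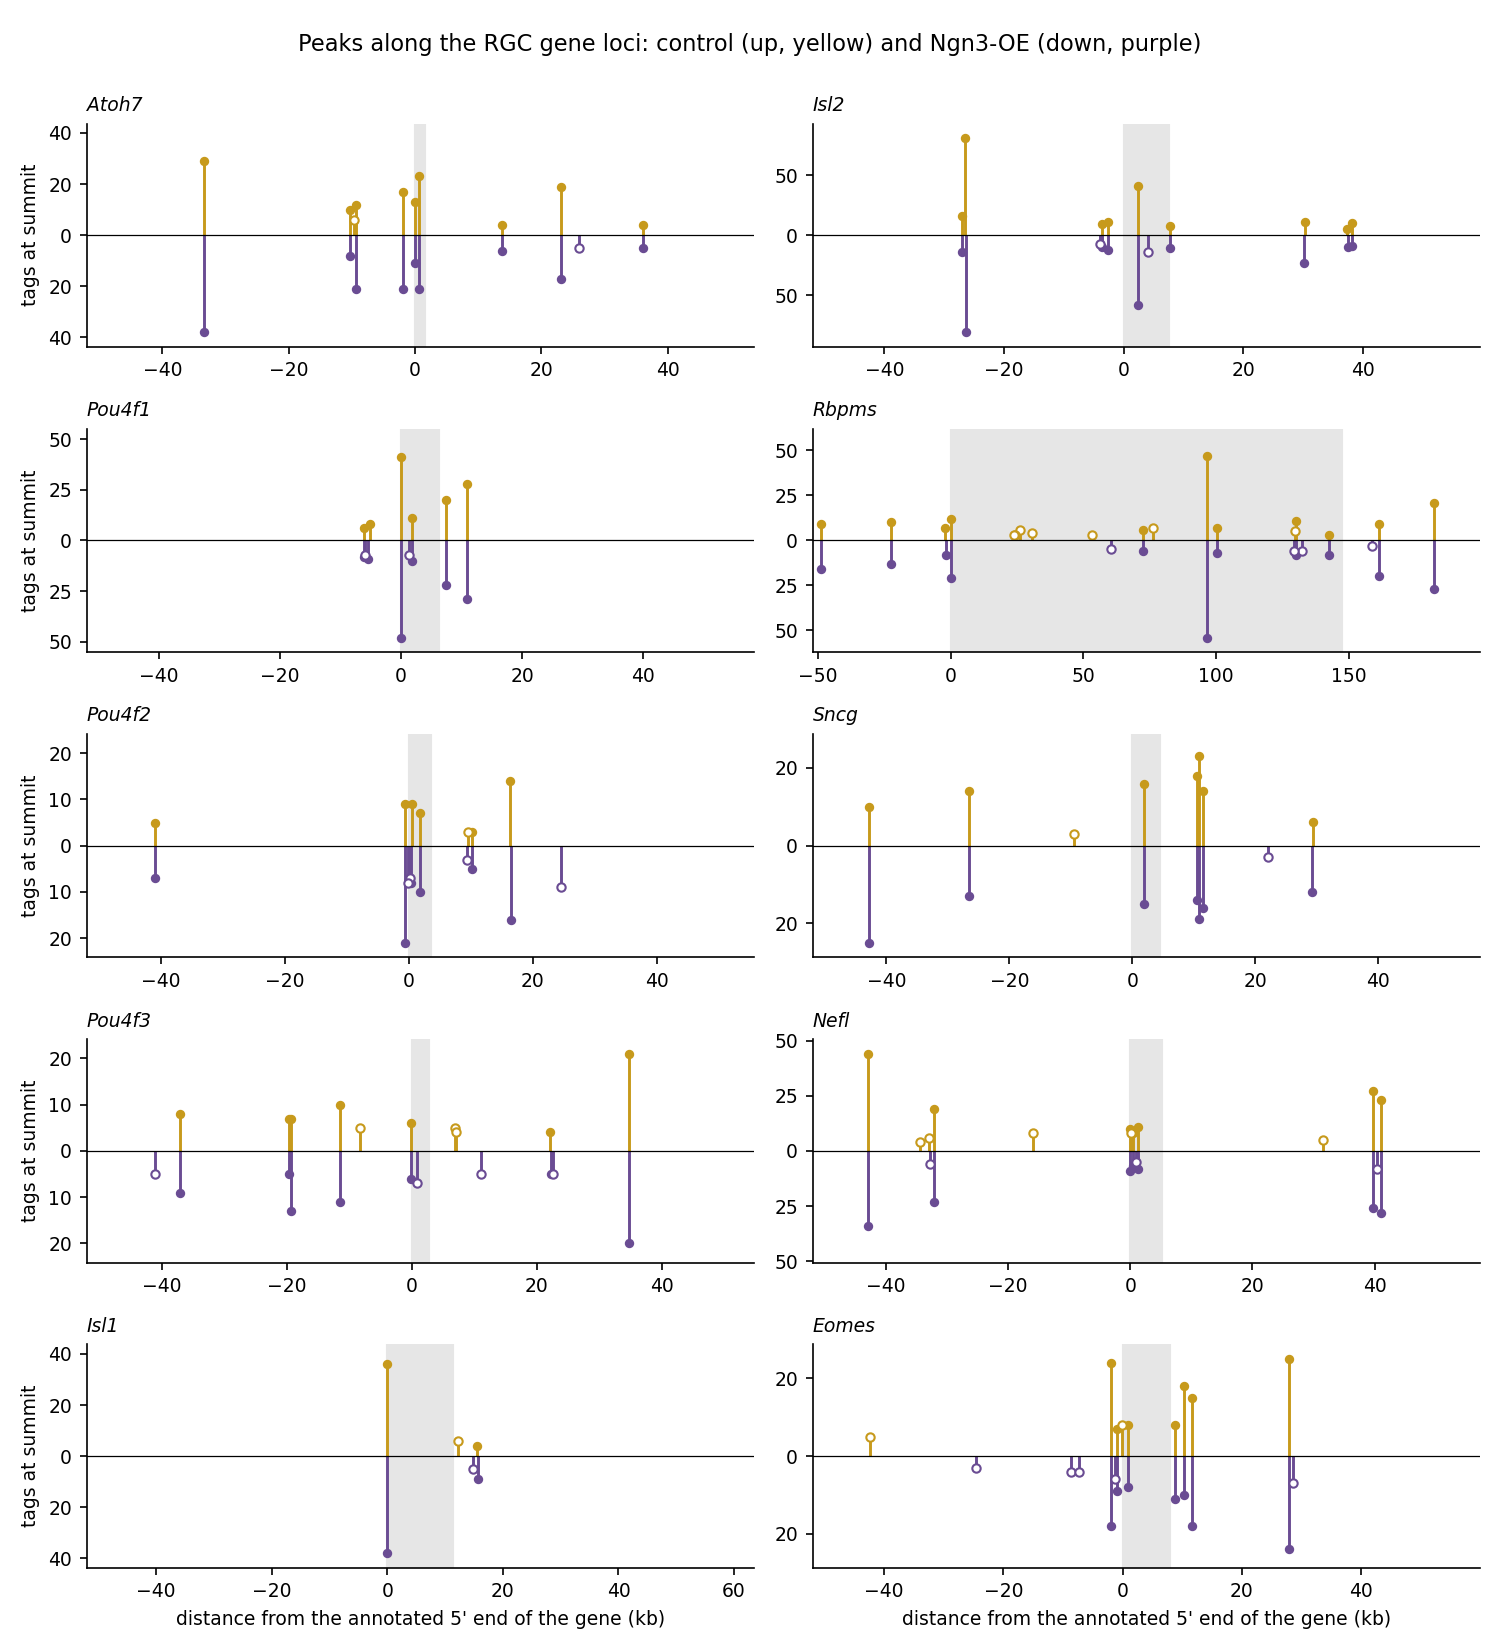
Peaks along each RGC locus, plotted by distance from the annotated 5′ end of the gene (kb) and tags at the summit, with control upwards in yellow and Ngn3-OE downwards in purple. Open circles are peaks of 1 library and grey bands are gene bodies; the Pou4f2 promoter carries the tall Ngn3-OE peak of 21 tags against 9 in control, and the start-site peak of Isl2 sits inside the band because it belongs to a later annotated start.

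At the start sites, 9 of the 10 members had a peak within 1 kb in both libraries, all but Sncg. Over 21911 protein-coding genes this share was 63.6%. In control, Pou4f1 and Isl2 had most tags (41 each), followed by Isl1 (36), Atoh7 (23), Rbpms (12), Nefl (10), Pou4f2 (9), Eomes (8) and Pou4f3 (6). No neighbours in this order differed beyond their counting intervals. In Ngn3-OE, Isl2 (58), Pou4f1 (48) and Isl1 (38) led again, Atoh7, Pou4f2 and Rbpms had 21 each, Eomes and Nefl had 9 each, and Pou4f3 had 7. Here the steps from Isl1 to Atoh7 and from Rbpms to Eomes exceeded the counting intervals, with lower log2 bounds of 0.05 and 0.03. The order was set by these same tags, with ties ordered by name. The steps were thus picked by the values compared, and no allowance was made for their number. All these start sites but those of Isl2 and Pou4f1 stayed below 43 tags, the median over genes with an open start site, in both libraries. Between the libraries, the interval of the start-site ratio lay above 0 at Pou4f2, 1 of the 9 members with an open start site, against 2.44% of the 13935 protein-coding genes open in both libraries. It lay below 0 at 0 of the 9, against 0.983% of those genes. Whether Pou4f2 differed from the other members was not tested. That a site is open in more cells, or more often in each cell, cannot be told apart in sorted bulk samples.

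**Figure D3:**
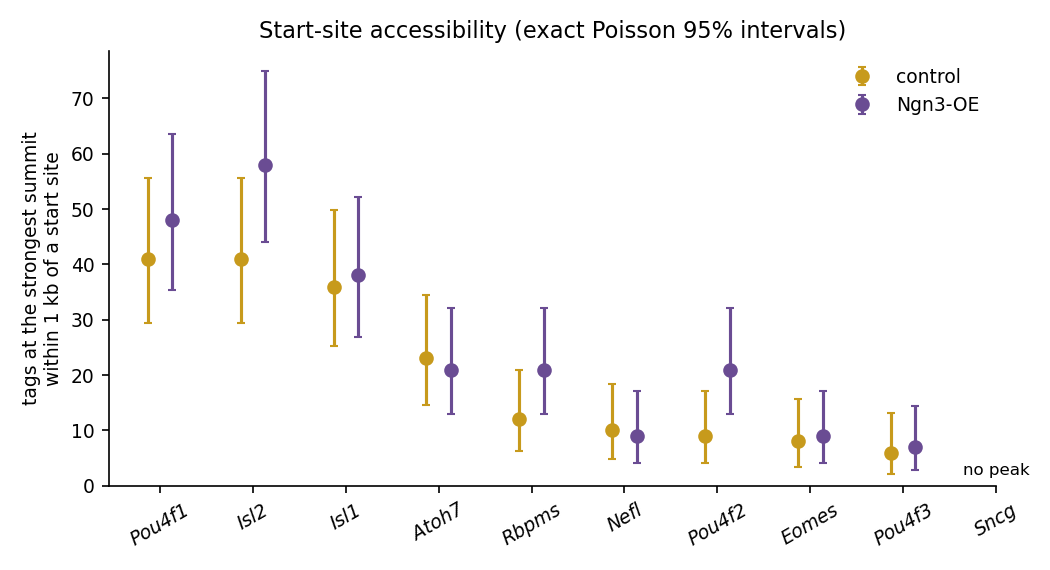
Tags at the strongest summit within 1 kb of a start site of each RGC gene, in control (yellow) and Ngn3-OE (purple), with exact Poisson 95% intervals that cover counting error only. The points of Pou4f2 lie at 9 and 21 tags, and Sncg has no peak.

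Over the 71 shared control peaks of the RGC loci, 46 ranked higher and 25 lower in Ngn3-OE. The share of higher ranks was 64.8% (53.2 to 74.9), against 58.8% over all shared peaks. The median rank shift was 3.22 percentile points (0.34 to 7.25), against 0.96 over all shared peaks, and the median log2 tag ratio was 0.19 (0.02 to 0.33), against 0.12. The overlapping Ngn3-OE peak with the highest −log10 q was taken as the partner, a choice made after a first rule, the partner with the largest overlap, had been seen. Under that first rule the median shift was 2.66 (−0.40 to 6.46), against 0.95 over all shared peaks. The lists differ in length, so the value over all shared peaks is the reference, not 0. The intervals of the median shift and of the median log2 ratio held that value under both rules.

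A gain of 20 or more rank points was seen at 16 of the 71 peaks, or 22.5% (14.4 to 33.5), near the background of 16.0% over all shared peaks. A loss of 20 or more points was seen at 3 peaks, or 4.23% (1.45 to 11.7), against a background of 10.5% that lies inside the interval. The gains were spread over 8 members: 4 at Pou4f2, 3 at Rbpms, 2 each at Atoh7, Sncg and Eomes, and 1 each at Pou4f3, Isl1 and Isl2. The losses were the Pou4f3, Nefl and Eomes peaks given above. Tags at least 2-fold higher in Ngn3-OE were seen at 4 of the 41 shared peaks with 20 or more tags in the libraries together. This share was 9.76% (3.86 to 22.5), and the background of 5.94% lies inside the interval. The 4 peaks were the Pou4f2 peak at −588 bp, the Sncg peak at −42881 bp, a peak of the Isl2 window in an intron of Scaper, at 27782 bp (11 and 23 tags), and a peak of the Rbpms window in an intron of Gtf2e2, at 161189 bp (9 and 20 tags). The last 2 were named after their values were seen, and the intervals of their log2 tag ratios included 0. No peak of the 41 had tags 2-fold lower, which allows a share of up to 7.32% by a limit of 3 counts (8.57% by the Wilson interval), and the background was 4.09%. These thresholds were set after peak values had been seen.

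**Figure D4:**
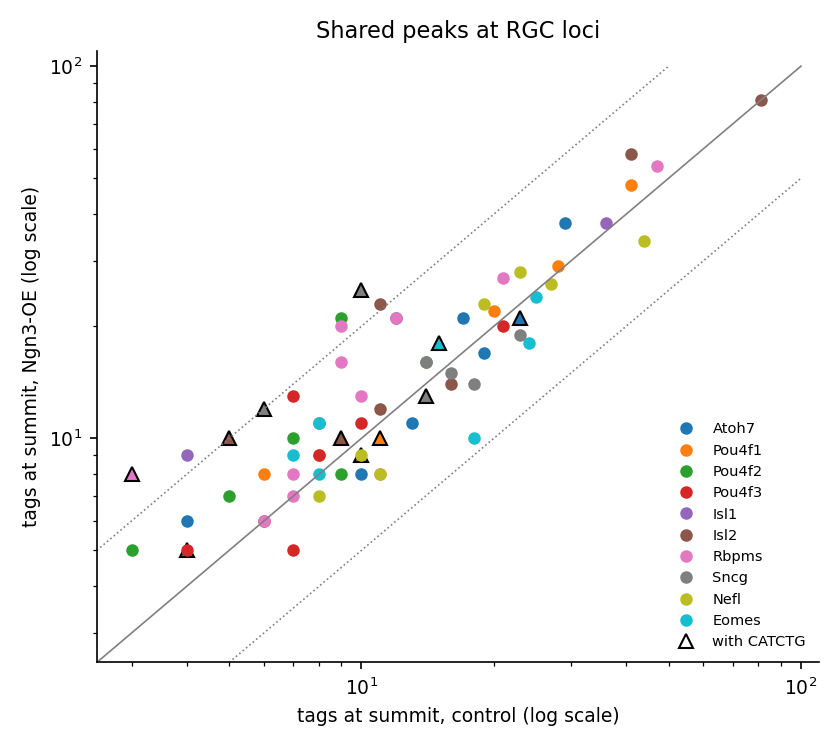
Tags at the summit in control (x axis) and Ngn3-OE (y axis), both on log scales, for the 71 shared peaks of the RGC loci, coloured by gene, with triangles for peaks that hold CATCTG. The solid line marks equal tags and the dotted lines mark 2-fold differences; peaks with the same pair of values overlie each other, and most points lie between the dotted lines.

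The sites of the RGC loci lay closer to start sites than peaks in general. Within 3 kb of any transcript start were 42.4% (32.8 to 52.6) of control and 48.0% (38.5 to 57.7) of Ngn3-OE peaks at these loci, against 31.3% and 30.8% over all peaks. Intronic sites made up 22.8% and 17.0%, against 37.7% and 38.5%. The rule itself selects windows around genes, most of them short, so these shares describe the windows. The nearest protein-coding start was that of the member itself for 67 of the 92 control peaks and 70 of the 100 Ngn3-OE peaks.

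The share of sites with an E-box at the RGC loci lay within counting error of that over all sites. CATCTG was found on either strand within 100 bp of the summit at 21 of 119 sites, or 17.6% (11.8 to 25.5), against 22.2% of all 150435 sites. Among the Ngn3-OE-only peaks of the loci, 7 of 27 held it, or 25.9% (13.2 to 44.7), against 25.3% of all Ngn3-OE-only peaks. It was present at 4 of the 16 peaks that gained 20 or more rank points, or 25% (10.2 to 49.5), against 25.6% of all such peaks. These 4 were the Isl2 peak at 34926 bp, the Rbpms peak at 142536 bp and the Sncg peaks at 29323 bp and −42881 bp. SOX-type letters, CCATTGT or CCTTTGT on either strand, were found at 7 of 119 sites, or 5.88% (2.88 to 11.6), against 8.32% of all sites. A match of letters is not a bound site.

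Other genes of RGC development and axon growth were also counted, 30 in all. Of these, 27 had an open start site in both libraries. Their windows held 458 control and 479 Ngn3-OE peaks. Control-only peaks made up 22.3% of the former, and Ngn3-OE-only peaks 25.5% of the latter. Gains of 20 or more points were seen at 64 of 356 shared peaks (18.0%) and losses at 37 (10.4%). The difference in losses, RGC members minus these genes, was −6.17 percentage points (−10.7 to 1.80), and that in gains was 4.56 (−4.68 to 16.1), so both intervals included 0. Over all peaks, control-only peaks made up 21.7% and Ngn3-OE-only peaks 26.6%. Most one-library peaks were seen at Robo2, a receptor of axon guidance, with 10 of 40 control peaks and 21 of 50 Ngn3-OE peaks. The neuronal zinc finger factor gene Myt1l had 15 of 58 and 8 of 50. Robo2 and Myt1l also held the most peaks of the list. Ebf1 had 5 of 31 and 14 of 40, and Ebf3 had 8 of 23 and 5 of 19. Some sites are counted in both groups: 12 control peaks of this list, around Nefl and Nefm, belong to the members as well.

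Genes of amacrine and horizontal cells, which are other early-born retinal neurons, were set beside the members. At the 10 amacrine and horizontal loci, 27 of 119 shared peaks lost 20 or more rank points, or 22.7% (16.1 to 31.0), and 16 gained as much, or 13.4%. The share of losses at the RGC loci was lower by 18.5 percentage points, with a 95% Newcombe interval for RGC minus amacrine and horizontal from −27.2 to −8.49. Over all shared peaks the share of losses was 10.5%, which lies inside the interval of the RGC loci and outside that of the amacrine and horizontal loci. This was the only 1 of 16 intervals, from 4 gene lists and 4 shares, that excluded 0. The difference in gains, 9.09 points, had an interval that includes 0 (−1.85 to 21.2). Against 10 rod loci, where 6 of 135 shared peaks lost 20 points (4.44%) and 22 gained as much (16.3%), neither interval excluded 0. Neighbouring peaks are not independent, the comparison was picked out after the values were seen, and the libraries are single, so this describes these lists alone.

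Markers of other cells that the sort could hold were also checked at their start sites. Of 10 markers of microglia, vessels and astrocytes, 4 had a start-site peak in both libraries: Cldn5 (6 tags in control and 10 in Ngn3-OE), Pdgfrb (10 and 9), Gfap (12 and 17) and Pdgfra (35 and 23). The microglial genes Cx3cr1, Csf1r, Ptprc and Aif1 and the endothelial genes Pecam1 and Cdh5 had none. Their summed start-site tags were 63 in control and 59 in Ngn3-OE, and those of the RGC members 186 and 232. Whether other cells contribute to the values at the RGC loci was not tested.

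**Figure D5:**
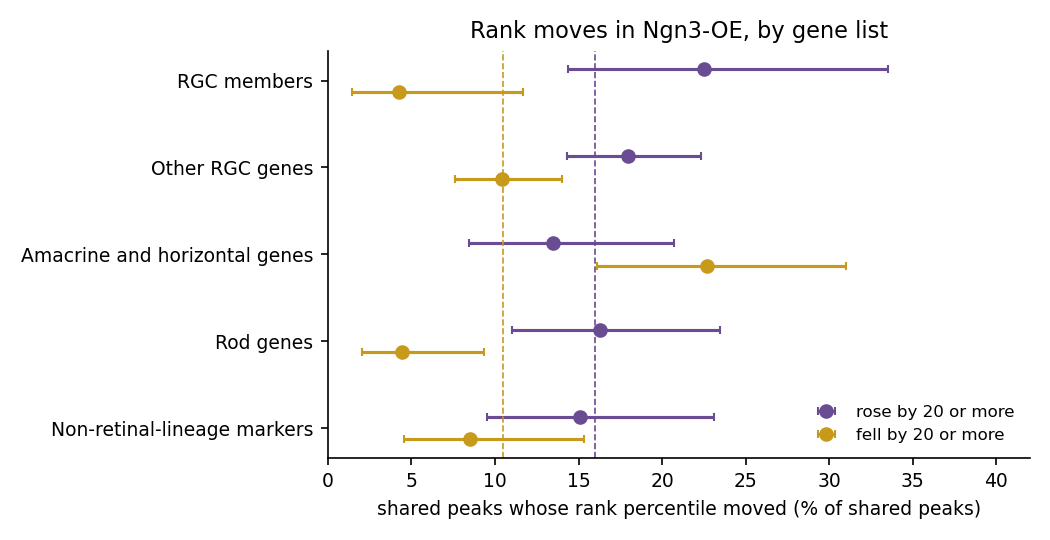
Share of shared peaks (%) whose rank percentile was higher (purple) or lower (yellow) by 20 or more points in Ngn3-OE, for the RGC members and the related gene lists, with 95% Wilson intervals that cover counting error only. Dashed lines mark 16.0% and 10.5%, the shares over all shared peaks; losses make up 4.23% at the RGC loci and 22.7% at the amacrine and horizontal loci.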

How the data were processed

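ATAC-seq peak lists of 2 libraries, control and Ngn3-OE, were analysed. According to the methods and the submitters' processing notes, the authors trimmed reads with Trimmomatic, aligned them to mm10 with Bowtie2, removed duplicates (Picard), mitochondrial reads (SAMtools) and reads in blacklisted regions (bedtools), kept fragments of up to 120 bp, moved read ends by 4 bp forward and 5 bp back for the Tn5 cut (deepTools), and called peaks per library in MACS2 at a q-value limit of 0.05. Longer, nucleosomal fragments are therefore not represented. For each peak the deposited columns hold an integer score, the fold enrichment (a ratio to local background) at the summit, both the p-value and the q-value as −log10, and the summit position. Fold enrichment is not normalised between libraries.

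Lines with equal intervals on chromosomes 1 to 19, X and Y were merged. Summit tags were solved from fold enrichment and −log10 p by the Poisson distribution used in MACS2, where a whole number matched −log10 p within 0.01 at 100% of the peaks. For tag ratios, tags were divided by the lowest background of each library (0.2615 and 0.2571 tags). Genes came from GENCODE release M21 and sequence from GRCm38. Shares have Wilson intervals and their differences Newcombe intervals. Tag ratios have exact binomial intervals, tags exact Poisson intervals, and medians order-statistic intervals. All are at 95%. Those of medians rest on the spread between peaks, taken as independent, and the others cover counting error only. The authors removed duplicates, but without molecular identifiers PCR copies cannot be fully told apart from independent molecules. Python 3.11.15 with numpy 2.4.6, pandas 2.3.3, scipy 1.17.1 and pysam 0.24.0 was used, and the scripts were tested on simulated data.

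The member genes, gene lists and motifs were chosen with earlier results of these data known. At each member, peaks within 1 kb of a start site, the strongest peak, the strongest one-library peaks and the shared peaks with the largest gain and loss in rank could be named. At most 4 genes were named from a related list, those with most one-library peaks. The markers of other cells were an exception and were all named, with their start-site peaks. Alternatives were a stricter q threshold, other flanks, overlaps, list lengths, ranks, scales and motif windows, and leaving out the member with most peaks. The partner with the largest overlap was added after the data were seen.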

Additional observations from a re-analysis of the deposited data

How the results depend on the processing

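Of 50 recomputed values, 37 stayed within 1.5 times the reported value (for counts of peaks) or inside its interval (for all others), 12 did not, and 1 changed sign. At a −log10 q of at least 5 in both lists, 56 control and 60 Ngn3-OE peaks remained at the RGC loci, and with 10 kb flanks 57 and 59, since fewer peaks qualify by construction. The share of control peaks that were shared was 85.7% with that threshold in both lists, 91.7% among the 50000 strongest peaks of each list, and 92.9% with the threshold on the queried list alone. The share of Ngn3-OE peaks was 63.0% when an overlap of at least 50% of both peaks was required, 84.6% among the 50000 strongest and 96.7% with the threshold on the queried list. With that last setting the log2 ratio of Ngn3-OE-only to control-only peaks was −1.0, from 2 and 4 peaks, with an interval from −3.45 to 1.45. Within 50 bp of the summit, CATCTG was found at 11.8% of sites and SOX-type letters at 0.84%, which is 1 of 119 sites. A smaller window can only lower these shares, and whether its size accounts for the whole fall was not tested. With the partner of largest overlap, the median rank shift was 2.66 (−0.40 to 6.46). For the shares, ratios and medians recomputed here, the interval at the RGC loci held the value over all peaks in every setting. The shares of peaks near start sites and in introns were not among them. Over all peaks, the shared share of control peaks was 81.7% with the threshold in both lists. Among the 50000 strongest peaks the shares were 80.2% in control and 80.1% in Ngn3-OE, and with the threshold on the queried list 92.1% and 89.7%, with a log2 ratio of one-library peaks of 0.48. The 50% overlap gave 63.8% for Ngn3-OE. Within 50 bp, SOX-type letters were found at 4.49% of all sites and CATCTG at 14.0%. No paired analysis was possible because each group has 1 library, and no replicate could be left out. Most tag numbers are under 20, which limits what could be told from counting error at single peaks.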
